A study of Mus musculus with 8 samples.

Results

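The SLC2 family of facilitative sugar carriers was followed in the liver and the epididymal white adipose tissue (eWAT) of mice with and without Crtc1, the CREB-regulated transcription coactivator 1. The members were chosen by symbol alone. They were Slc2a1, Slc2a2, Slc2a3, Slc2a4, Slc2a5, Slc2a6, Slc2a8, Slc2a9, Slc2a10 and Slc2a12, 10 of the 19348 genes in the table. RNA-seq libraries came from male C57BL/6 mice aged 12 weeks that had been kept on normal chow and fasted for 16 h. The 4 groups were Crtc1+/+ liver, Crtc1-/- liver, Crtc1+/+ eWAT and Crtc1-/- eWAT, with 2 libraries in each. The study's methods describe 2 mice of each genotype, from which pieces of liver and eWAT were taken, so the tissue groups of a genotype shared animals, although which liver went with which eWAT was not stated. The Crtc1-/- line was made with CRISPR/Cas9, lacked Crtc1 in the whole body rather than in a chosen cell type, and was bred from heterozygotes together with the littermate Crtc1+/+ controls. Total counts were between 16560070 and 19721464 per library.

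Proteins of the SLC2 family, also called GLUTs, let hexoses or related solutes cross a membrane down their concentration gradient, so that the amount and the site of each carrier set how a cell exchanges sugar with blood. In liver, the low-affinity carrier encoded by Slc2a2 (GLUT2) allows glucose to enter after meals and to leave during fasting. In adipocytes and muscle fibres, the carrier encoded by Slc2a4 (GLUT4) is held in vesicles and moved to the cell surface by insulin. These libraries measured transcripts only, not protein, surface carrier or uptake.

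The libraries had features that bear on every result for eWAT. All 25 markers of epididymal epithelium, such as the secreted glutathione peroxidase Gpx5, fell in eWAT labelled Crtc1-/-, and their summed level was 100748 and 115371 CPM (the count for each 1000000 of all counts) in the Crtc1+/+ eWAT libraries but 36.4 and 16.8 in the Crtc1-/- eWAT libraries, with 6 and 4 of them at 0 (Lcn6, Defb15, Defb41 and Spink12 in both, Lcn10 and Rnase9 in the first). Of 15 adipocyte markers 12 rose, and their sum was 3102 and 5020 CPM against 49975 and 24103. Of 10 endothelial markers all rose, from sums of 381 and 388 CPM to 4921 and 2857. No hepatocyte marker of 13 passed the test, but their sum reached 104049 CPM in Crtc1-/- eWAT replicate 2 against 1124 in replicate 1 and 6274 and 778 in Crtc1+/+ eWAT. Macrophage markers were higher in 3 of 9 (sums of 234 and 119 CPM against 763 and 377), sperm markers lower in 2 of 7 (1244 and 618 against 106 and 12.3) and muscle markers higher in 1 of 6 (519 and 313 against 988 and 714). Crtc1 itself was not lower in the libraries labelled Crtc1-/-: it was at 11.7 and 9.86 CPM in Crtc1+/+ liver and at 22.1 and 18.0 in Crtc1-/- liver (adjusted p = 0.184, edgeR), and at 32.6 and 33.7 in Crtc1+/+ eWAT and at 58.5 and 33.6 in Crtc1-/- eWAT (adjusted p = 0.396). Counts were given per gene, so the targeted exons could not be examined on their own, and every direction below is between libraries as labelled. In pieces of tissue, fewer cells of a type and less RNA per cell cannot be told apart.

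Promoter sequence was read for 8 of the 10 members from RefSeq on GRCm38.p6, all but Slc2a3 and Slc2a4. The 3 shown are those of Slc2a2, the leading member of liver, and of Slc2a10 and Slc2a5, the members with the lowest ratio of Crtc1-/- to Crtc1+/+ in eWAT. Each is written 5′ to 3′ on the gene's own strand and ends just before the first annotated transcribed base. Capitals mark GC boxes (GGGCGG on either strand) and runs of TG repeated 5 or more times.
Slc2a2 (chr3:28697653-28697902, plus strand, 250 bases): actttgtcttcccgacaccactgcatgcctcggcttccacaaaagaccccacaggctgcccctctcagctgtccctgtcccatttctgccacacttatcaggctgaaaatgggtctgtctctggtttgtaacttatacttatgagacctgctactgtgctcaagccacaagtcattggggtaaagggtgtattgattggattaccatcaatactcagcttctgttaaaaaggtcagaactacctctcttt
Slc2a10 (chr2:165503647-165503786, plus strand, 140 bases): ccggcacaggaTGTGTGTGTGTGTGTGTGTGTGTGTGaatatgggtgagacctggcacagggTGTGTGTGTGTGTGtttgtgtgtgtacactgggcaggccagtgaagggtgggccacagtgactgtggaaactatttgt
Slc2a5 (chr4:150119094-150119282, plus strand, 189 bases): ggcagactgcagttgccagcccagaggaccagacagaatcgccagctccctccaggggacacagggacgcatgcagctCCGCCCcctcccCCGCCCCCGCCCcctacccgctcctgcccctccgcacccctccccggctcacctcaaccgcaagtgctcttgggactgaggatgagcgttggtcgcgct
The Slc2a5 window held 3 GC boxes and was 69.8% G and C, the Slc2a2 window held none and was 47.2% G and C, and the Slc2a10 window held TG runs of 26 and 14 bases. Over the 250 bases before the RefSeq start, a GC box was found in 4 of the 8 members (Slc2a1, Slc2a5, Slc2a6 and Slc2a10) and in 32.7% of all 32851 promoters. Runs of TG or CA repeated 5 or more times, of any such length, were found in 1.43% of all promoters. None of the 8 held the cAMP response element TGACGTCA, which CREB binds and which 1.55% of all promoters held, nor its core TGACG (which the full element contains; 17.8% of all promoters), an E-box CACGTG (6.02%) or a TATAAA (12.4%), on either strand. These are matches of letters in a short window and say nothing on whether a factor was bound.

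The first question was which members each tissue carried. Levels were compared between genes as FPKM, which divides by transcript length. In liver the order was led by Slc2a2, at 44.4 and 57.7 FPKM in Crtc1+/+ and at 51.6 and 57.5 in Crtc1-/- mice. Every other member was below 11 FPKM in all 4 livers, and Slc2a2 made up between 60.7 and 72.4% of the FPKM summed over the family. Slc2a8 (GLUT8), a carrier of intracellular membranes, followed at 9.74 ± 1.60 FPKM in Crtc1+/+ liver (SD, n = 2). Slc2a9, which carries urate, was at 8.39 ± 0.750, and Slc2a1 (GLUT1), the carrier of basal glucose uptake in many cells, at 7.95 ± 0.870. The ranges of neighbours in this trio overlapped, in Crtc1-/- liver too. Slc2a5, the fructose carrier GLUT5, was at 1.80 ± 0.163 FPKM, and the remaining 5 members had means below 0.5 FPKM in Crtc1+/+ liver. Slc2a10 and Slc2a12 were near the limit of detection in liver, with between 0 and 4 counts in each library. The library with 0 counts of Slc2a10, Crtc1+/+ replicate 1, allowed up to 3 counts or 0.152 CPM.

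**Figure D1:**
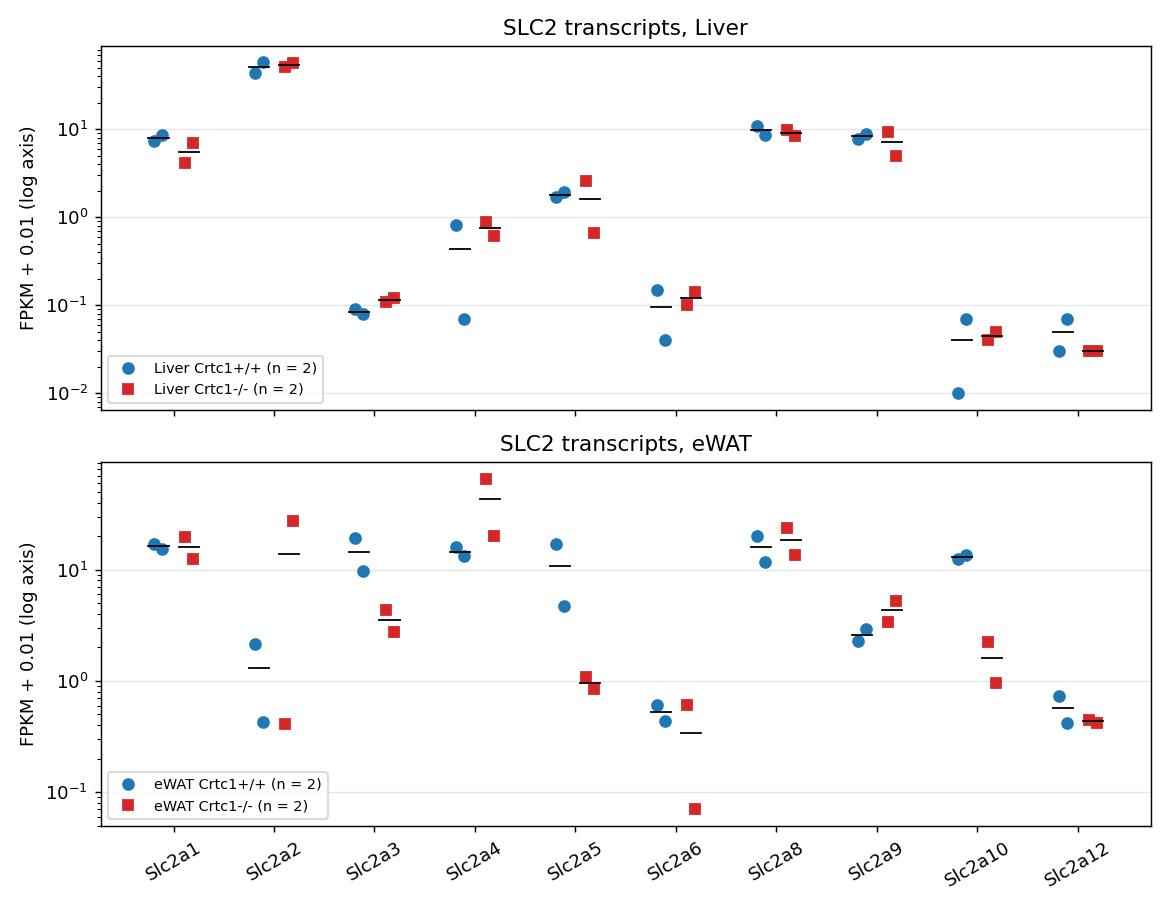
FPKM of each SLC2 member in liver (upper panel) and eWAT (lower panel), with 0.01 added for the log axis; circles are Crtc1+/+ and squares Crtc1-/- libraries, and short lines are the means of 2. Slc2a2 stands above all other members in liver, while in eWAT 6 members lie close together in Crtc1+/+ mice and the Crtc1-/- points of Slc2a3, Slc2a5 and Slc2a10 lie below the Crtc1+/+ points.

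No single member led in Crtc1+/+ eWAT. There 6 members formed a run in which each overlapped the next. They were Slc2a1 (16.2 ± 1.05 FPKM, n = 2), Slc2a8 (15.9 ± 5.88), Slc2a3 (14.5 ± 6.92), Slc2a4 (14.5 ± 1.91), Slc2a10 (12.9 ± 0.834) and Slc2a5 (10.8 ± 8.73). Below them stood Slc2a9 at 2.60 ± 0.431 and Slc2a2 at 1.29 ± 1.23, which did not overlap each other, and then Slc2a12 and Slc2a6, both under 1 FPKM in each library. Slc2a4, for which fat is known, was thus level with Slc2a3, a high-affinity carrier known from neurons and sperm, in eWAT libraries that also held epididymal markers.

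In Crtc1-/- eWAT the order was led by Slc2a4, at 65.7 and 20.2 FPKM. Slc2a8 followed at 18.5 ± 7.13, Slc2a1 at 16.0 ± 4.96 and Slc2a2 at 13.8 ± 19.0, and neighbours among these overlapped. Slc2a3 had 3.52 ± 1.12 FPKM, Slc2a10 1.59 ± 0.912 and Slc2a5 0.955 ± 0.177. The 2 libraries of this group differed in their leading member. Slc2a4 held 54.2% of the family's FPKM in replicate 1 and 24.1% in replicate 2, where Slc2a2 led with 32.6% against 0.330% in replicate 1. The family's summed FPKM, between 72.3 and 107 in Crtc1+/+ eWAT and between 83.7 and 121 in Crtc1-/- eWAT, overlapped between genotypes.

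**Figure D2:**
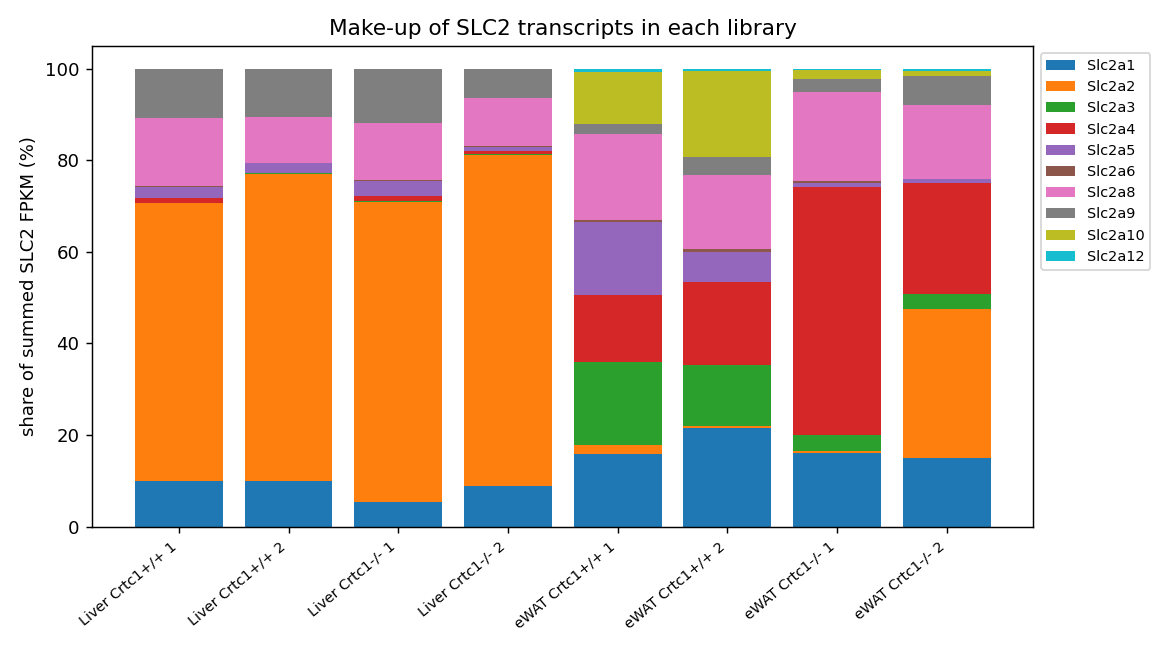
Share of each member in the FPKM summed over the 10 SLC2 genes (vertical axis, percent), 1 bar for each library. Slc2a2 fills 60.7 to 72.4% of the liver bars, Slc2a4 fills 54.2% of Crtc1-/- eWAT replicate 1, and Slc2a2 fills 32.6% of Crtc1-/- eWAT replicate 2.

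The next comparison was eWAT with liver within each genotype, in 1 edgeR fit of the 8 libraries scaled by TMM, which sets libraries to a common trimmed mean of ratios. A gene was called when its p, adjusted over all genes tested by the Benjamini-Hochberg method, was under 0.05. In Crtc1+/+ mice, where 35.0% of all tested genes were called higher in eWAT and 19.8% lower, 4 members were higher and 2 lower. The higher members were Slc2a10 (log2 fold change 7.25, SE 0.80, adjusted p = 0.000999), Slc2a3 (6.22, SE 0.48, adjusted p = 0.000526), Slc2a4 (3.53, SE 0.90, adjusted p = 0.0160) and Slc2a12 (2.82, SE 0.80, adjusted p = 0.0230). Slc2a10 had 0 and 4 counts in the Crtc1+/+ livers, so the size of its difference is uncertain, and it ran from 2.82 (limma) to 12.1 (without Crtc1+/+ liver replicate 2) over the alternatives, with the call kept in each. Slc2a12 encodes GLUT12, another carrier reported in insulin-responsive tissue, and both Crtc1+/+ livers held 3 or fewer counts of it, so that 4.88-fold is the lower bound of its ratio, set by 3 counts per liver library. On quantile-normalised log2(FPKM + 1) with limma, Slc2a12 stood at -0.15. The call of Slc2a12 was also lost with DESeq2 (adjusted p = 0.0661), without any 1 of the 4 Crtc1+/+ libraries (0.0579 to 0.150) and without Crtc1-/- eWAT replicate 2 (0.0578). The lower members were Slc2a2 (-6.70, SE 1.90, adjusted p = 0.0231) and Slc2a9 (-3.11, SE 0.47, adjusted p = 0.00253). Slc2a2 stayed between -8.29 and -5.29 over the alternatives, but its call was lost without any 1 of the 4 Crtc1+/+ libraries (adjusted p from 0.0598 to 0.106). Slc2a4 was at 22.8 and 18.7 CPM in eWAT and 3.33 and 0.244 in liver, and without the second of these livers its log2 fold change was 2.63. Over all the alternatives the value for Slc2a4 ran from 2.23 to 6.36.

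In Crtc1-/- mice, 18.9% of all genes were called higher in eWAT and 8.89% lower, and 4 members were higher and 1 lower. Slc2a4 was higher by 4.49 on the log2 scale (SE 0.91, adjusted p = 0.0143), Slc2a10 by 4.31 (SE 0.79, adjusted p = 0.0103), Slc2a3 by 3.94 (SE 0.45, adjusted p = 0.00146) and Slc2a12 by 3.54 (SE 0.88, adjusted p = 0.0272). Both Crtc1-/- livers held 3 or fewer counts of Slc2a10 and Slc2a12, which gives lower bounds of 13.6-fold and 4.13-fold. Slc2a9 was lower (-1.74, SE 0.44, adjusted p = 0.0289), and its call was lost under library-size scaling, at -0.68 (adjusted p = 0.168). That scaling also moved the median over all genes, from 0.20 to 1.33. With a replicate block the calls of Slc2a9 (adjusted p = 0.0699) and Slc2a12 (0.0522) were lost. On limma's scale of log2(FPKM + 1), Slc2a10 (0.75, adjusted p = 0.0631), Slc2a12 (0.20, 0.236) and Slc2a3 (1.21, 0.0770) were not called. Slc2a2 did not pass (-2.86, SE 1.58, adjusted p = 0.200), with 194 and 208 CPM in liver but 0.579 and 54.9 in eWAT. Without Crtc1-/- eWAT replicate 2 the value for Slc2a2 was -8.44 (adjusted p = 0.00113).
The number of called members in Crtc1-/- mice dropped to 1 without Crtc1-/- liver replicate 1, to 2 without Crtc1-/- liver replicate 2 and to 3 without Crtc1-/- eWAT replicate 1.

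Slc2a1, Slc2a5, Slc2a6 and Slc2a8 were not called between tissues in either genotype. Slc2a1 differed by -0.37 (SE 0.26) in Crtc1+/+ and 0.42 (SE 0.27) in Crtc1-/- mice, and Slc2a8 by -0.69 (SE 0.31) and -0.13 (SE 0.30). Slc2a5 differed by 1.34 (SE 0.74) and -1.90 (SE 0.78), and Slc2a6 by 1.21 (SE 1.11) and 0.45 (SE 1.10). With a replicate block Slc2a8 was called in Crtc1+/+ mice (-0.74, adjusted p = 0.0305). Scaling by library size alone moved the median over all genes from 0.61 to 2.003 in Crtc1+/+ and from 0.20 to 1.33 in Crtc1-/- mice. It called 11826 and 7127 of 15587 genes. Slc2a1 was called at 1.04 in Crtc1+/+ (adjusted p = 0.0248, edgeR), which turned its direction, and at 1.56 in Crtc1-/- mice (0.00930). Slc2a5 was called in Crtc1+/+ mice (2.74, adjusted p = 0.0133). Slc2a8 turned to 0.71 and 1.03 and was not called. Because the median of all genes moved with this scaling, the turns under it cannot decide the direction of a single gene. Slc2a5 kept its sign over the alternatives, from 0.14 to 2.74 in Crtc1+/+ and from -2.57 to -0.59 in Crtc1-/- mice. No tissue direction is given for these genes because none was called in the main fit.

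Genotype was then compared within liver. Only 6 members passed the filter on low counts (Slc2a1, Slc2a2, Slc2a4, Slc2a5, Slc2a8 and Slc2a9), and none was called, where 0.0854% of all 11707 tested genes were. None of the 6 had an unadjusted p under 0.05 in edgeR, and DESeq2 and limma called 0 as well. Slc2a2 was at 109 and 143 CPM in Crtc1+/+ and at 125 and 136 in Crtc1-/- liver. The Crtc1-/- values lay inside the range of the Crtc1+/+ values (log2 fold change 0.05, SE 0.26, adjusted p = 0.943). Slc2a1 had 18.0 and 21.1 CPM in Crtc1+/+ and 9.91 and 16.1 in Crtc1-/- liver. It was the 1 member of the 6 whose genotypes did not overlap, against 52.1% of all tested genes, and its log2 fold change was -0.59 (SE 0.30, adjusted p = 0.339). Slc2a9 (-0.35), Slc2a8 (-0.14) and Slc2a5 (-0.07) overlapped between genotypes, with adjusted p from 0.610 to 0.959. Slc2a3, Slc2a6, Slc2a10 and Slc2a12, which were not tested, had at most 7 counts in any liver library.

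Slc2a4 in liver was low in a single library. It was at 2.16 and 0.157 CPM in Crtc1+/+ and at 2.31 and 1.46 in Crtc1-/- liver (log2 fold change 0.70, SE 0.81, adjusted p = 0.680). The low value, 3 counts in Crtc1+/+ liver replicate 2, belonged to the library that was also lowest for skeletal muscle. The 6 muscle markers, among them Acta1, Myh4 and Ckm, summed to 8.69 CPM there and to 492, 630 and 459 CPM in the other livers, and no marker was at 0. The low library held 3 counts of Slc2a4 beside 170 of the muscle markers, or 17.6 per 1000, a ratio that rests on those 3 counts. In the other 3 livers Slc2a4 stood at 4.33, 3.67 and 3.29 counts per 1000 muscle marker counts. The summed adipocyte markers, from 883 to 1366 CPM, were carried in liver by Gpd1, Pnpla2 and Car3, which hepatocytes also express. Among markers more restricted to fat, Cfd was at 0.420 CPM in Crtc1+/+ liver replicate 2 against 2.62, 3.77 and 1.11 in the other livers, and Adipoq at 0.105 against 0.411, 0.629 and 0.350. Plin1, Lep, Retn and Acvr1c were at 0 in this library. Acvr1c was also at 0 in both Crtc1-/- livers, and Lep in Crtc1-/- liver replicate 2. Aqp7, Plin4, Cidec and Lipe were not lowest in this library. Aqp7 was at 0.367 CPM against 0.257, 0.629 and 0.350 in the other livers. Plin4 was at 6.77 against 11.0, 5.87 and 10.2, and Cidec at 15.7 against 45.1, 16.6 and 12.9. The library was thus low for some fat markers, but not all, as well as for muscle markers. The part of muscle or fat in this value was not tested.

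**Figure D3:**
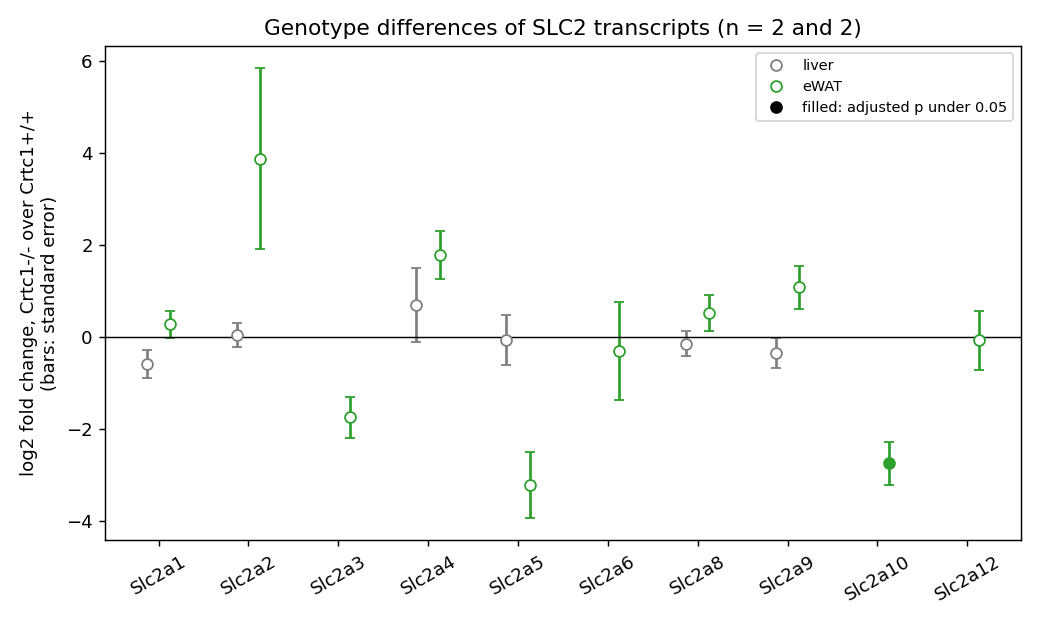
Log2 fold change of Crtc1-/- over Crtc1+/+ libraries for each member, in liver (grey) and eWAT (green), with bars of 1 standard error; filled symbols have an adjusted p under 0.05. Slc2a10 in eWAT is the filled symbol, at -2.75, and Slc2a2 in eWAT carries the longest bar.

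In eWAT all 10 members were tested and 1 was called, where 12.2% of all 15391 tested genes were called, 6.65% as higher and 5.54% as lower in Crtc1-/- mice. The called member was Slc2a10, which encodes GLUT10, a carrier of internal membranes whose loss in people causes arterial tortuosity (NCBI gene 170441, chr2:165503787-165519917, plus strand, GRCm38, GENCODE M21). It was at 35.7 and 40.5 CPM in Crtc1+/+ and at 7.48 and 3.82 in Crtc1-/- eWAT. Both Crtc1-/- values lay below both Crtc1+/+ values, and the log2 fold change was -2.75 (SE 0.46, adjusted p = 0.0302). The value lay between -3.31 and -2.08 over 14 alternative settings, and the call was lost with either Crtc1+/+ library left out (adjusted p = 0.154 without replicate 1 and 0.261 without replicate 2), when no gene at all was called, and with a replicate block (0.0615). At the study's own threshold for DEGs (a log2 fold change beyond 1 in either direction and p under 0.01 before adjustment), which 15.9% of all genes met in the edgeR fit, 2 members qualified, Slc2a10 and Slc2a5.

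Slc2a5 and Slc2a3 were also lower in both Crtc1-/- eWAT libraries than in either Crtc1+/+ library, but did not pass in the main edgeR fit. Slc2a5 was at 41.2 and 11.8 CPM in Crtc1+/+ and at 2.91 and 2.78 in Crtc1-/- eWAT (log2 fold change -3.22, SE 0.72, adjusted p = 0.0516). The Crtc1+/+ values of Slc2a5 were far apart, and both Crtc1-/- values were close together. Slc2a3 was at 65.9 and 33.7 CPM in Crtc1+/+ and at 16.9 and 12.8 in Crtc1-/- eWAT (-1.74, SE 0.45, adjusted p = 0.0672). Other edgeR settings called Slc2a5 with library-size scaling (adjusted p = 0.0380), no expression filter (0.0466) and a mean count of at least 50 (0.0487). All 8 libraries in 1 fit called Slc2a5 (0.0265) and Slc2a3 (0.0136). Upper-quartile scaling (0.0505), a replicate block (0.0764) and removal of epididymis and hepatocyte markers (0.0550) did not call Slc2a5. DESeq2 called Slc2a3, Slc2a4, Slc2a5 and Slc2a10, but it called 4620 of 15391 genes in all, against 1875 of 15391 in the edgeR fit. With limma on log2(FPKM + 1), Slc2a10 was called, among 1410 of 18800 genes called in all. For all 3 lower members the epididymal markers were higher by several orders of magnitude in the same Crtc1+/+ libraries (100748 and 115371 CPM against 36.4 and 16.8), and sperm markers were higher as well. Between the Crtc1+/+ libraries, Slc2a10 stood at 0.402 and 0.384 counts per 1000 epididymal marker counts, while Slc2a3 (0.742 and 0.319) and Slc2a5 (0.464 and 0.112) did not keep 1 ratio. In Crtc1-/- eWAT Slc2a10 had 136 and 55 counts, Slc2a3 307 and 185, and Slc2a5 53 and 40, which per 1000 epididymal marker counts gave 202 and 185 for Slc2a10, 455 and 623 for Slc2a3, and 78.6 and 135 for Slc2a5. The part of epididymal tissue in these values was not tested.

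Slc2a4 (NCBI gene 20528, chr11:69942539-69948188, minus strand) had 33.7 and 28.4 CPM in Crtc1+/+ and 156 and 58.9 in Crtc1-/- eWAT. Both Crtc1-/- values were above both Crtc1+/+ values, but they were far apart, and the log2 fold change of 1.79 (SE 0.52) did not pass (adjusted p = 0.0886). It was 0.93 (adjusted p = 0.142) without Crtc1-/- replicate 1 and 2.30 (adjusted p = 0.0124) without Crtc1-/- replicate 2. Adipocyte markers differed between genotypes by more than Slc2a4 did, with a median log2 fold change of 3.73 over the 15. Per 1000 adipocyte marker counts, Slc2a4 stood at 12.3 and 6.20 in Crtc1+/+ and at 3.06 and 1.998 in Crtc1-/- eWAT, so that the order of the genotypes was the opposite of that in CPM. No marker of this list was at 0 in any eWAT library, and the part of adipocyte content in the Slc2a4 value was not tested.

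Slc2a2 (NCBI gene 20526, chr3:28697903-28731359, plus strand) gave the highest ratio and the widest error of the family in eWAT. It was at 4.62 and 0.934 CPM in Crtc1+/+ and at 0.989 and 81.4 in Crtc1-/- eWAT (log2 fold change 3.88, SE 1.96, adjusted p = 0.229). A single library, Crtc1-/- replicate 2, was high, the genotypes overlapped, and without that library the value was -1.47 (adjusted p = 0.493). This library also had hepatocyte markers at 104049 CPM. Slc2a2 stood at 0.639 counts per 1000 hepatocyte marker counts there, inside the range of the 4 livers, 0.546 to 0.666, and at 0.836, 1.31 and 0.866 in the other eWAT libraries, which held 96, 18 and 18 counts. Without Crtc1-/- eWAT replicate 1, in contrast, Slc2a2 was called (4.88, adjusted p = 0.0145), on the single remaining Crtc1-/- library.

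**Figure D4:**
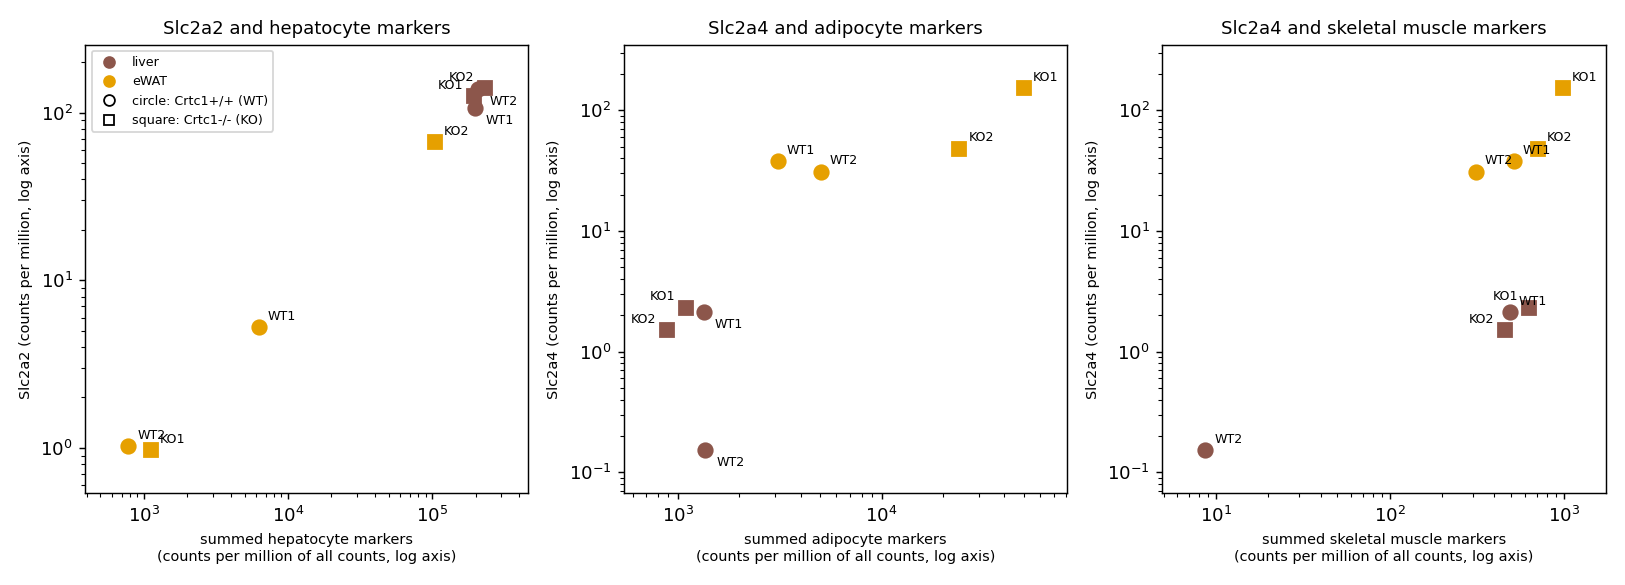
Slc2a2 against summed hepatocyte markers, and Slc2a4 against summed adipocyte and skeletal muscle markers, in each of the 8 libraries (both axes in CPM of all counts, log scale; brown liver, yellow eWAT; circles Crtc1+/+, squares Crtc1-/-, numbers are replicates). Crtc1-/- eWAT replicate 2 lies near the livers in the first panel, and Crtc1+/+ liver replicate 2 lies apart from the other livers in the third.

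The remaining members of eWAT did not pass. Slc2a9 was at 6.55 and 8.40 CPM in Crtc1+/+ and at 11.4 and 20.3 in Crtc1-/- eWAT, without overlap (1.08, SE 0.46, adjusted p = 0.178). Its higher value was in the library rich in hepatocyte markers, where it stood at 0.159 counts per 1000 of them against 0.0653 to 0.150 in liver, and at 1.18, 11.8 and 9.95 in the other eWAT libraries. Slc2a1 was at 36.3 and 34.2 CPM against 48.3 and 37.4 (0.28, SE 0.29, adjusted p = 0.525). Library-size scaling put it at -0.01, but also moved the median over all genes from -0.05 to -0.35. Per 1000 endothelial marker counts, Slc2a1 stood at 108 and 96.5 in Crtc1+/+ and at 9.64 and 10.7 in Crtc1-/- eWAT. Slc2a8 overlapped between genotypes, at 34.2 and 20.6 CPM against 46.4 and 32.2 (0.52, SE 0.40, adjusted p = 0.392). Slc2a12 (1.35 to 2.17 CPM over the 4 libraries, adjusted p = 0.943) and Slc2a6, a lysosomal carrier known from leukocytes (0.139 to 1.21 CPM, adjusted p = 0.860), were low and gave no direction. In all, 6 of 10 members did not overlap between genotypes (Slc2a1, Slc2a3, Slc2a4, Slc2a5, Slc2a9 and Slc2a10), against 66.6% of all tested genes, which is near the same share.

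Whether the genotype difference itself differed between eWAT and liver was tested as an interaction. No member was called, where 6.94% of all 15587 tested genes were, and 2 of the 10 had an unadjusted p under 0.05. Slc2a3 gave -2.27 (SE 0.65, adjusted p = 0.0813) and Slc2a5 -3.24 (SE 1.08, adjusted p = 0.117). Slc2a10 gave -2.94 (SE 1.33, adjusted p = 0.206) and had at most 4 counts in any liver. DESeq2 called 1 member, Slc2a5 (-3.15, adjusted p = 0.0461), and limma 1, Slc2a10 (-2.08, adjusted p = 0.0149). Without Crtc1-/- eWAT replicate 1, edgeR called Slc2a2.

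The genes that act with these carriers were read from 4 lists. In liver no gene of any list was called between genotypes (0 of 18 tested genes of GLUT traffic, 0 of 11 sugar kinases and glucose-6-phosphatase genes, 0 of 13 transcription factors and 0 of 3 other sugar carriers). In eWAT, among 20 genes for the traffic of GLUT4 vesicles and the turnover of surface GLUTs, 4 rose, 1 fell and 15 did not pass (over all genes, 6.65% rose and 5.54% fell), with a list median of -0.08 beside -0.05 over all genes. Trarg1, a membrane protein of GLUT4 vesicles in fat, was at 22.0 and 29.4 CPM in Crtc1+/+ and at 777 and 520 in Crtc1-/- eWAT (4.66, SE 0.44, adjusted p = 0.0165). Myo1c, a motor that helps GLUT4 vesicles reach the surface, rose from 82.3 and 76.2 to 641 and 379 CPM (2.68, SE 0.41, adjusted p = 0.0261). Both genes were higher in each Crtc1-/- library, as were the adipocyte markers.

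Txnip, an arrestin that promotes removal of GLUT1 and GLUT4 from the surface, rose from 330 and 332 to 1589 and 2246 CPM (2.53, SE 0.43, adjusted p = 0.0307). Akt2, the kinase that passes the insulin signal to the vesicles, rose from 117 and 107 to 636 and 606 CPM (2.47, SE 0.33, adjusted p = 0.0214). The gene that fell, Tbc1d1, which restrains vesicle release and is an Akt substrate, went from 85.0 and 105 to 28.7 and 19.7 CPM (-1.97, SE 0.33, adjusted p = 0.0299). Tbc1d1 was named after its value was seen. Its relative Tbc1d4 was at 15.1 and 21.2 against 16.5 and 13.4 CPM and overlapped between genotypes (-0.28, adjusted p = 0.620).

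Of 13 transcription factors known to act on SLC2 genes, 2 rose in eWAT and 11 did not pass, with a median of 1.25. Pparg, the adipocyte regulator, rose from 14.5 and 24.1 to 254 and 188 CPM (3.52, SE 0.41, adjusted p = 0.0184). Nr1h3, which encodes the oxysterol receptor LXR alpha and for which Slc2a4 is a known target, rose from 24.1 and 15.2 to 197 and 222 CPM (3.41, SE 0.37, adjusted p = 0.0170). None of the 11 tested sugar kinases and glucose-6-phosphatase genes passed in eWAT, with a median of 2.20, nor did any of 4 other sugar carriers.

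Genes whose profile over the 8 libraries lay closest to each member were found by the root mean square of the differences between centred log2 CPM, where 0 means the same profile. The 8 libraries share tissue and genotype, so closeness is a description. Slc2a9 had the closest match, Slc40a1, at 0.0880 log2 units. Slc2a8 was followed by Sppl2b (0.101), Ctnnbl1 and Alkbh4, and Slc2a1 by Stx18 (0.146), Tmem128 and Pgam5. Slc2a2 lay nearest to Ugt2b34 (0.181), Ass1 and Baat, all genes of liver metabolism. Slc2a3 lay nearest to Rprml (0.360), Gfra4 and Slc29a4. The nearest genes were farther off for Slc2a4 (Fsd2 at 0.508, Rrad and the fatty acid receptor gene Ffar4), Slc2a5 (Sytl1 at 0.511, Gstm6 and Ldhd) and Slc2a10 (Trim29 at 0.526, Kcnh2 and Stard6).

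Reads could be shared with a neighbour in a few places. In GENCODE M21, exons of Slc2a12 shared 407 bases with the opposite-strand gene Tbpl1, and those of Slc2a1 shared 105 with an antisense transcript, Gm12868. How strand was treated in counting is not given in the sources used here, so reads from such stretches cannot be told apart. The exons of the other 8 members shared no base with an exon of another annotated gene.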

How the data were processed

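RNA of 8 mouse tissue pieces was sequenced by the study. The submitters' processing notes name HISAT, Bowtie2 and GRCm38.p6, and the counting tool is not given in the sources used here. The deposited table holds estimated counts per gene, all whole for the members, and a second deposited table holds FPKM values made by the authors, which divide by transcript length and library size. No column of the authors' own comparisons was used. Groups followed the labels of tissue and genotype. Liver and eWAT pieces came from the same 2 mice of each genotype per the study's methods, but which numbers match is not stated, and the fit treated libraries as independent.

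Counts that were not whole were rounded. Each tissue was filtered with filterByExpr, scaled by TMM and tested with the quasi-likelihood F test of edgeR 4.0.16 (R 4.3.3), and 1 fit of all 8 libraries gave the tissue contrasts and the interaction. SE was the log2 fold change divided by the root of F. The study's limma method was run on log2(FPKM + 1) as an alternative (limma 3.58.1), as were DESeq2 1.42.0, other scalings and filters, a replicate block, removal of epididymis and hepatocyte markers, and leaving out each library. P-values were adjusted over all genes tested, with a threshold of 0.05. A permutation test of 2 against 2 cannot give less than p = 0.333 and was not used. Replicates differed by more than sampling noise, so each library was counted once. The scripts were tested on simulated data.

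CPM values were scaled by TMM within tissue for genotype comparisons, over 8 libraries for tissue comparisons, and by total counts for marker sums. Named were all 10 members, list genes called in a genotype comparison (the 4 with the largest change where more were called), leading markers, the 3 nearest profiles of members and Crtc1. Members and lists were chosen with earlier results of these data known, so no list is independent support. Python 3.11.15 and matplotlib 3.10.9 drew the figures.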

Additional observations from a re-analysis of the deposited data

Results flagged for a closer look

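No member's genotype difference differed between eWAT and liver past the threshold, and groups of 2 were too small for a test of outlying samples. Among the genes listed beside the members, 8 (5 of 20 for GLUT traffic, 3 of 13 transcription factors, 0 of 11 sugar kinases and glucose-6-phosphatase genes and 0 of 5 other carriers, beside 6.94% of all 15587 genes) differed between the tissues by the interaction test of edgeR over 8 libraries (the difference in eWAT minus that in liver, log2 scale). They were Trarg1 (3.50, SE 0.54, adjusted p = 0.0163), Nr1h3 (3.34, SE 0.49, adjusted p = 0.0141), Myo1c (3.31, SE 0.44, adjusted p = 0.0114), Pparg (2.87, SE 0.45, adjusted p = 0.0175), Akt2 (2.87, SE 0.46, adjusted p = 0.0177) and Txnip (2.50, SE 0.55, adjusted p = 0.0437), all with the higher value in eWAT, and Mef2a (-2.55, SE 0.53, adjusted p = 0.0367) and Tbc1d1 (-1.82, SE 0.35, adjusted p = 0.0298), with the lower value there. Mef2a, a factor for which Slc2a4 is a known target, was named after its value was seen.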

How the results depend on the processing

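With 2 mice a group, precision was limited by replicates rather than by depth, except for the 4 members with at most 7 counts in liver. No member was called in liver under any alternative run. In eWAT, where edgeR called 1 member, DESeq2 called 4 and all 8 libraries in 1 fit called 3. Library-size scaling, no expression filter and a mean count of at least 50 each called 2. Over all genes, edgeR called 1875 of 15391, DESeq2 4620 of 15391 and the fit of 8 libraries 3861 of 15587. The other settings, in that order, called 1662 of 15391, 1996 of 18776 and 1794 of 12992. The larger member counts of DESeq2 and the 8-library fit thus came with more calls over all genes. With the replicate block, 0 members were called in eWAT (of 0 genes in all) and 3 rather than 5 between tissues in Crtc1-/- mice (without Slc2a9 and Slc2a12), while Slc2a8 was added in Crtc1+/+ mice. Same-numbered samples correlated with r from 0.00860 to 0.152 in their deviations from group means, so the numbers were not shown to pair samples. The interaction gave 1 member with DESeq2 (2056 of 15587 genes in all) and 1 with limma on log2(FPKM + 1) (2378 of 18874). Between tissues in Crtc1-/- mice, limma called 2 members on log2(FPKM + 1) and 3 on log2(FPKM + 0.1). Leaving out 1 library gave 0 to 2 members in eWAT (0 without either Crtc1+/+ library, 2 without either Crtc1-/- library), 0 to 1 for the interaction, 4 to 6 between tissues in Crtc1+/+ mice and 1 to 5 between tissues in Crtc1-/- mice.

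Directions turned in 36 of 725 member values under an alternative, and the cause was not tested. With library-size scaling Slc2a1 was at -0.0110 in eWAT and 1.04 between tissues in Crtc1+/+ mice, and Slc2a8 at 0.71 and 1.03 between tissues in Crtc1+/+ and Crtc1-/- mice. The median over all genes moved with this scaling, from -0.05 to -0.35 in eWAT. Between tissues it moved from 0.61 to 2.003 in Crtc1+/+ and from 0.20 to 1.33 in Crtc1-/- mice. These turns therefore cannot decide the direction of a single member. With limma on log2(FPKM + 1) and log2(FPKM + 0.1), Slc2a6 was at 0.10 and 0.20 in eWAT, 0.0816 and 0.22 for the interaction, -0.31 and -0.99 between tissues in Crtc1+/+ and -0.23 and -0.77 in Crtc1-/- mice, and Slc2a12 at 0.30 and 0.73 in eWAT and -0.15 and -0.50 between tissues in Crtc1+/+ mice. Slc2a12 in eWAT was at 0.0208 with no expression filter and 0.00125 with epididymis and hepatocyte markers removed. Leaving out 1 library turned, in liver, Slc2a2 (-0.15 to 0.25), Slc2a4 (-0.20 to 3.52), Slc2a5 (-1.36 to 0.59), Slc2a8 (-0.30 to 0.0151) and Slc2a9 (-0.91 to 0.0472); in eWAT, Slc2a2 (-1.47 to 5.56), Slc2a6 (-2.54 to 0.49) and Slc2a12 (-0.35 to 0.33); for the interaction, Slc2a2 (-1.59 to 5.44), Slc2a4 (-1.88 to 1.85), Slc2a6 (-2.81 to 0.16) and Slc2a12 (-0.24 to 1.31); and between tissues in Crtc1-/- mice, Slc2a6 (-1.61 to 1.21) and Slc2a8 (-0.30 to 0.0113).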
